A study of Mus musculus with 18 samples.

Results

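The collagen chain genes were taken from the gene count table of mouse retinal pigment epithelium (RPE) libraries as every row whose symbol is Col, a number, the letter a and a number. This rule found 44 of the 52636 genes in the table, and 43 of them reached at least 10 counts in at least 3 of the 18 libraries. Col6a4 reached this level in only 2 libraries and was left out. The symbol rule uses no expression difference, but the members and gene lists were chosen with earlier results of these data known.

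Collagens are extracellular matrix proteins in which 3 alpha chains wind into a triple helix. Fibrillar collagens give tissues such as the sclera their tensile strength, collagen IV forms the sheet of basement membranes, and FACIT collagens sit on the surface of fibrils. Beaded filament collagen VI links cells to the matrix, and transmembrane collagens stay anchored in the cell surface. The RPE rests on Bruch's membrane, a layered matrix that holds collagens from both the RPE and the cells of the choroid.

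The study asked how SREBP2, a transcription factor of cholesterol synthesis, and LRP2, a large endocytic receptor, act in the RPE on the growth of the mouse eye. C57BL/6 mice were used at postnatal day 14, in 6 groups of 3 libraries. Libraries came from uninjected eyes or from eyes given an AAV8 vector subretinally as newborns, with expression driven by the RPE promoter Best1. The GFP vector was the control for nSREBP2, the constitutively nuclear N-terminal part of SREBP2, and the ctrl sh vector, labelled Laczsh, was the control for 2 hairpins against Lrp2, Lrp2 sh1 and Lrp2 sh2. All injected groups share the serotype and the promoter, and the hairpin vectors also carry mCherry. Each library pooled both eyes of a mouse, and RPE cells were loosened from the eyecup with papain and trituration, so cells of the choroid and sclera could be included.

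Total counts were between 8921885 and 13696934 per library, so that a count of 0 allows at most 0.219 to 0.336 CPM (counts scaled to a library total of 1000000), counting error only. The manipulated genes followed their labels. Srebf2 was higher in nSREBP2 than in GFP libraries (log2FC 1.10 ± 0.11 SE, adjusted P=0.000121, edgeR quasi-likelihood test), and Lrp2 was lower with sh1 (-1.68) and with sh2 (-1.60). Lrp2 was also lower in nSREBP2 than in GFP libraries (-2.18). Markers of the RPE were present in all groups, but the sum of 10 of them was 2571 to 7591 CPM in uninjected libraries, 537 to 701 in GFP, 398 to 603 in nSREBP2, 1891 to 3824 in ctrl sh, 1488 to 2310 with sh1 and 693 to 1144 with sh2. Rpe65, the visual cycle isomerase of the RPE, was far lower in GFP than in uninjected libraries (log2FC -8.95 ± 0.52 SE, adjusted P=0.000321, edgeR). Markers of other cells were high in every library. Their sums were 2121 to 4231 CPM for fibroblasts, 2534 to 4774 CPM for mural cells and 1830 to 3345 CPM for endothelium. Collagen levels here are thus those of a mixture and cannot be assigned to the RPE alone. In such bulk libraries fewer cells of a type and less RNA per cell cannot be told apart. Reads of Y-linked genes and Xist placed 1 uninjected, all 3 nSREBP2 and 2 sh2 libraries as male and the other libraries as female, so that sex and vector cannot be told apart within nSREBP2 versus GFP alone.

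Col23a1, Col4a3 and Col4a4 were the only members below an adjusted P of 0.05 in all 3 comparisons of the study, and their start regions are shown here for that reason. Col4a3 and Col4a4 encode chains of the collagen IV network that is defective in Alport syndrome, and Col23a1 encodes a transmembrane collagen. Col4a4 (chr1:82448423-82586849, minus strand, GENCODE M21 on GRCm38) and Col4a3 (chr1:82586921-82722059, plus strand) lie head to head, with 71 bases between their annotated starts. Col23a1 lies at chr11:51289920-51583918 on the plus strand. The windows run from 250 bases before to 50 bases after the start, as given by RefSeq for GRCm38.p6. For Col4a4 (chr1:82586800-82587099, minus strand) capitals mark the 71 bases between the genes, and for Col23a1 (chr11:51289670-51289969, plus strand) capitals mark the first 50 bases from the start.
Col4a4: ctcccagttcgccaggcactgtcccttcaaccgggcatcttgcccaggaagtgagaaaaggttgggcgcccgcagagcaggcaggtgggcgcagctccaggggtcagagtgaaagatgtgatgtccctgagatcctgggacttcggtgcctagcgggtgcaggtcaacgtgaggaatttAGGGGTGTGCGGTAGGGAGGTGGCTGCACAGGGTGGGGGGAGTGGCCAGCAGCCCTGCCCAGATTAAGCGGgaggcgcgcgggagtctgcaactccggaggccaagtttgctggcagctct
Col23a1: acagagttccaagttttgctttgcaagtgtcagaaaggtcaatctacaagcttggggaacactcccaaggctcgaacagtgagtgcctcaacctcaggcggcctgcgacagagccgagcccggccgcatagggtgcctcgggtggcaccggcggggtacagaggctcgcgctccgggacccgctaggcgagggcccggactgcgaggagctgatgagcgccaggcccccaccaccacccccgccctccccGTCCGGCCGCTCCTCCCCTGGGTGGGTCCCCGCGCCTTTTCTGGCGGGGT
RefSeq windows matched 34 of the 43 genes, with 37 promoters among them. The E-box CACGTG was in none of these 37 and in 7.15% of all 32851 promoters of that length, both strands counted. The sterol element TCACNCCAC, which neither contains nor lies within the E-box and was searched on both strands, was in 1.24% of all promoters and in those of 2 collagen genes, Col11a2 and Col17a1. The SRE-like sequence GTGGGG, which the paper lists for the human LRP2 promoter, was not searched, so its share among promoters is not known. Its letters occur in the capitals of the Col4a4 window above, and its reverse complement CCCCAC occurs in the Col23a1 window. A match in letters is a description only and is no binding site.

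Collagen transcripts were dominated by a few fibrillar chains. Per kilobase of exon, Col1a1 had the highest mean level over the 18 libraries, at 3562 CPM per kb (range 1198 to 6992). Col1a2, the other chain of collagen I, followed at 1109.9 CPM per kb (range 427 to 2034), and Col3a1 of collagen III at 746 (range 327 to 1210.4). These 3 genes made up 73.2% of the summed level of the 43 genes per kilobase. The basement membrane chains Col4a1 (227 CPM per kb) and Col4a2 (206) and Col6a1 of collagen VI (198) came next by the mean over all libraries, followed by Col8a1 of the short chain network (169, range 113 to 276). The ranges of these 4 genes overlap and groups differ, so that their order is not settled. Col19a1 was lowest, at 0.241 CPM per kb. By mean CPM without length, 24 members were above 100, 15 between 10 and 100 and 4 under 10.

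**Figure D1:**
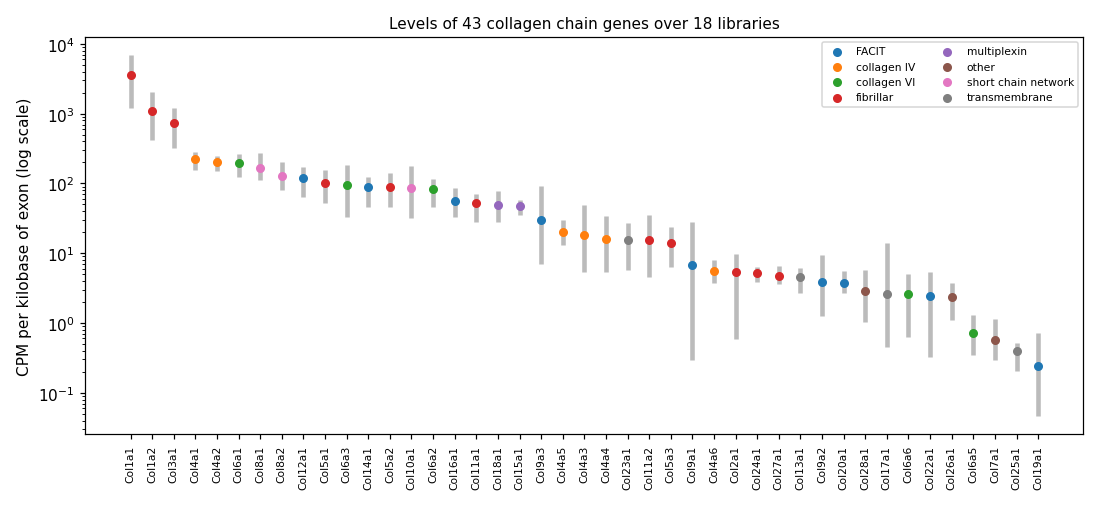
Level of the 43 collagen chain genes in CPM per kilobase of exon (log axis), ordered by the mean over the 18 libraries. Points are means coloured by structural class and grey bars run from the lowest to the highest library; Col1a1 is highest at 3562 and Col19a1 lowest at 0.241 CPM per kb.

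The 43 genes together took 3.76% ± 0.88 of all counts in uninjected, 5.14% ± 0.45 in GFP and 9.08% ± 0.48 in nSREBP2 libraries (SD, n=3 each). The share was 5.52% ± 0.75 in ctrl sh, 6.14% ± 0.41 with sh1 and 5.84% ± 0.50 with sh2 (SD, n=3 each). The lowest nSREBP2 library, at 8.60%, was above the highest library of any other group, at 6.46%. The lowest share of all, 2.75%, belonged to the male uninjected library. Over all 6 groups, 34 of 43 members differed at an adjusted P under 0.05 (edgeR quasi-likelihood test, Benjamini-Hochberg over all 19744 genes tested), against 48.7% of all genes. The members that did not were Col15a1, Col24a1, Col25a1, Col2a1, Col4a2, Col4a6, Col6a5, Col9a1 and Col9a2.

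With nSREBP2, fibrillar collagens rose and the Col4a3-Col4a4 pair and Col23a1 fell. At an adjusted P under 0.05, 21 members were higher and 5 lower than in GFP libraries, 26 of 43 beside 21% of all genes (12.6% higher and 8.47% lower). With an absolute log2FC above 1 as well, the threshold used for differentially expressed genes, 7 members were higher and 3 lower, together 10 of 43 beside 6.67% of all 17927 genes tested (4.71% higher and 1.96% lower). The median log2FC was 0.39 over the members and -0.02 over all genes, and 29 members had a positive and 14 a negative log2FC. Groups of 3 that do not overlap were common among all genes tested, 19.7% higher and 17.8% lower here, 12.9% and 12.3% for sh1 and 17.2% and 19.6% for sh2, and are given for each gene below as a description.

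Of the 11 fibrillar members 8 were higher and none lower at an adjusted P under 0.05, with a class median log2FC of 0.83. Col1a1, the main chain of scleral fibrils, was at 16008, 19394 and 21164 CPM in GFP and at 45888, 36668 and 41111 CPM in nSREBP2 libraries. All 3 nSREBP2 libraries lay above all GFP libraries (log2FC 1.12 ± 0.14 SE, adjusted P=0.000385, edgeR). Col11a2, a chain of collagen XI that helps to nucleate fibrils, was at 59.8, 75.6 and 82.3 CPM in GFP and at 229, 188 and 241 CPM in nSREBP2 libraries, again with no overlap (log2FC 1.59 ± 0.13 SE, adjusted P=3.07e-05, edgeR). Col5a3, a chain of collagen V that regulates fibril assembly, was at 83.5, 68.5 and 77.0 CPM in GFP libraries. It was at 150.2, 153 and 164 CPM in nSREBP2 libraries (log2FC 1.02 ± 0.08 SE, adjusted P=4.24e-05, edgeR). The groups did not overlap, and the log2FC was just under 1 without GFP replicate 2 or nSREBP2 replicate 3. Col1a2 (log2FC 0.97), Col3a1 (0.89), Col5a2 (0.83), Col5a1 (0.67) and Col11a1 (0.35) rose below the log2FC limit of 1. Col2a1, Col24a1 and Col27a1 did not pass the test.

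Markers of fibroblasts, the cells that make most fibrillar collagen, were also higher. Their 10 genes summed to 2501 to 3015 CPM in GFP and 3691 to 4231 CPM in nSREBP2 libraries, with 7 of 10 higher at an adjusted P under 0.05 and none at 0 in every library. Macrophage markers were higher for 7 of 8, at 370 to 438 CPM in GFP and 641 to 691 CPM in nSREBP2 libraries. Endothelial markers were lower for 8 of 10 (2537 to 3241 against 1908 to 2046 CPM). The part of these cells in the collagen differences was not tested.

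**Figure D2:**
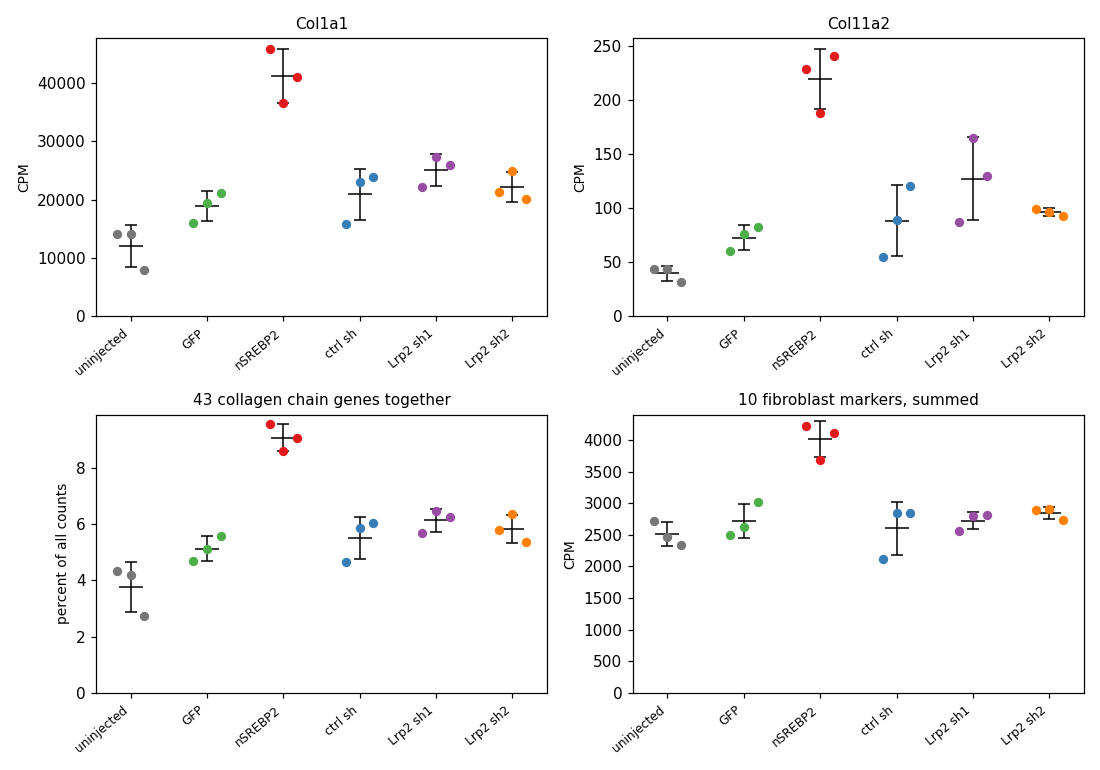
Col1a1 and Col11a2 (CPM), the 43 collagen chain genes together (percent of all counts) and the sum of 10 fibroblast markers (CPM) in each of the 18 libraries. Points are libraries, bars are the mean and SD of 3; the nSREBP2 libraries are the highest in all 4 panels, with a collagen share of 8.60% to 9.57%.

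Outside the fibrillar class, Col6a3, a chain of collagen VI, was at 781, 915 and 1013 CPM in GFP and at 2228, 1838 and 2025 CPM in nSREBP2 libraries, with no overlap (log2FC 1.16 ± 0.11 SE, adjusted P=7.6e-05, edgeR). Col22a1, a FACIT known from tissue junctions such as the myotendinous junction, was at 19.3, 15.4 and 21.7 CPM in GFP and at 46.6, 49.1 and 48.2 CPM in nSREBP2 libraries. These groups were also apart (log2FC 1.35 ± 0.12 SE, adjusted P=6.44e-05, edgeR). Col6a1 (0.42) and Col6a2 (0.59) of collagen VI, and Col4a1 (0.48) and Col4a2 (0.38) of collagen IV, rose by less than 1 on the log2 scale. The adjusted P of Col4a2 was above 0.05, at most 0.0803, without GFP replicate 2 or nSREBP2 replicate 1 or 2. Col10a1 of the short chain network was at 193, 189 and 230.4 CPM in GFP and at 380, 348 and 338 CPM in nSREBP2 libraries, without overlap. With a library left out its log2FC was 0.735 to 0.896 and its adjusted P at most 0.00289 (edgeR).

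Both epithelial anchoring collagens were higher with nSREBP2 than in GFP libraries, at low levels that overlapped those of uninjected libraries. Col17a1, a component of hemidesmosomes, was at 2.72, 7.01 and 3.08 CPM in GFP and at 15.4, 10.8 and 84.3 CPM in nSREBP2 libraries, so that the third nSREBP2 library stood far above the others (log2FC 3.12 ± 0.76 SE, adjusted P=0.0167, edgeR). Across the libraries Col17a1 was high where 8 markers of surface epithelium, a list chosen after its values were seen, were high: these summed to 309, 113 and 2529 CPM in nSREBP2 and to 2.04, 73.7 and 2.03 CPM in GFP libraries. The part of such epithelium in Col17a1 was not tested. Its log2FC was 1.63 without nSREBP2 replicate 3, still below an adjusted P of 0.05, and its adjusted P was 0.0756 without GFP replicate 1. Col7a1, the collagen of anchoring fibrils, was at 3.91, 3.55 and 4.65 CPM in GFP and at 6.30, 6.88 and 11.9 CPM in nSREBP2 libraries (log2FC 1.04 ± 0.26 SE, adjusted P=0.0205, edgeR). Its adjusted P was above 0.05, at most 0.0858, without GFP replicate 1, GFP replicate 2 or nSREBP2 replicate 3. Uninjected libraries held 5.61 to 8.52 CPM of Col7a1 and 3.19 to 13.6 CPM of Col17a1. Col7a1 was also highest in the third nSREBP2 library, and the part of surface epithelium in it was not tested.

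Lower with nSREBP2 were a transmembrane collagen, the paired collagen IV chains and a FACIT. Col23a1 was at 117, 152 and 123 CPM in GFP and at 38.9, 34.6 and 33.0 CPM in nSREBP2 libraries, all of them below every GFP library (log2FC -1.88 ± 0.11 SE, adjusted P=5.38e-06, edgeR). Col4a4 was at 187, 179 and 132 CPM in GFP and at 72.4, 62.5 and 57.5 CPM in nSREBP2 libraries, also without overlap (log2FC -1.38 ± 0.13 SE, adjusted P=0.000104, edgeR). Its neighbour Col4a3 followed, at 141, 129 and 98.8 CPM in GFP and 73.2, 58.6 and 53.6 CPM in nSREBP2 libraries (log2FC -0.996 ± 0.14 SE, adjusted P=0.00101, edgeR), just short of the log2FC limit. Col19a1, a FACIT of basement membrane zones, was at 1.02, 1.24 and 2.55 CPM in GFP and at 0.752, 0.436 and 0.548 CPM in nSREBP2 libraries (log2FC -1.48 ± 0.46 SE, adjusted P=0.0482, edgeR), a level of a few counts at which 5 of the 6 libraries, GFP replicate 1 excepted, each took the adjusted P above 0.05 when left out, to at most 0.166. Without GFP replicate 3 its log2FC was -0.96. Col13a1, a transmembrane collagen, also fell (log2FC -0.53), with an adjusted P above 0.05, at most 0.0696, without GFP replicate 1 or 3 or nSREBP2 replicate 1. RPE markers were lower for 4 and higher for 2 of 10 in this comparison, and mural cell markers were lower for 4 of 10 (3101 to 4029 CPM in GFP and 2534 to 2918 CPM in nSREBP2 libraries). The part of these cells was not tested.

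When the sex read from the counts was added to one model over the 18 libraries, where only the uninjected and sh2 groups hold both sexes, Col23a1 (-1.74), Col4a4 (-1.63), Col1a1 (1.49), Col11a2 (1.83), Col22a1 (2.25), Col6a3 (1.61) and Col5a3 (1.67) stayed below an adjusted P of 0.05. Col4a3 (-1.31), Col1a2 (1.29) and Col3a1 (1.15) did so too and went past the log2FC limit. Col17a1 (adjusted P=0.427), Col7a1 (0.215), Col19a1 (0.250) and Col13a1 (0.0987) did not. The sex term rests on few libraries, among them the male uninjected one with the lowest collagen share. Its Col1a1 was at 7864 CPM, against 14040 and 14110 CPM in the female uninjected libraries. The larger log2FC values of this fit therefore cannot be taken as better estimates.

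**Figure D3:**
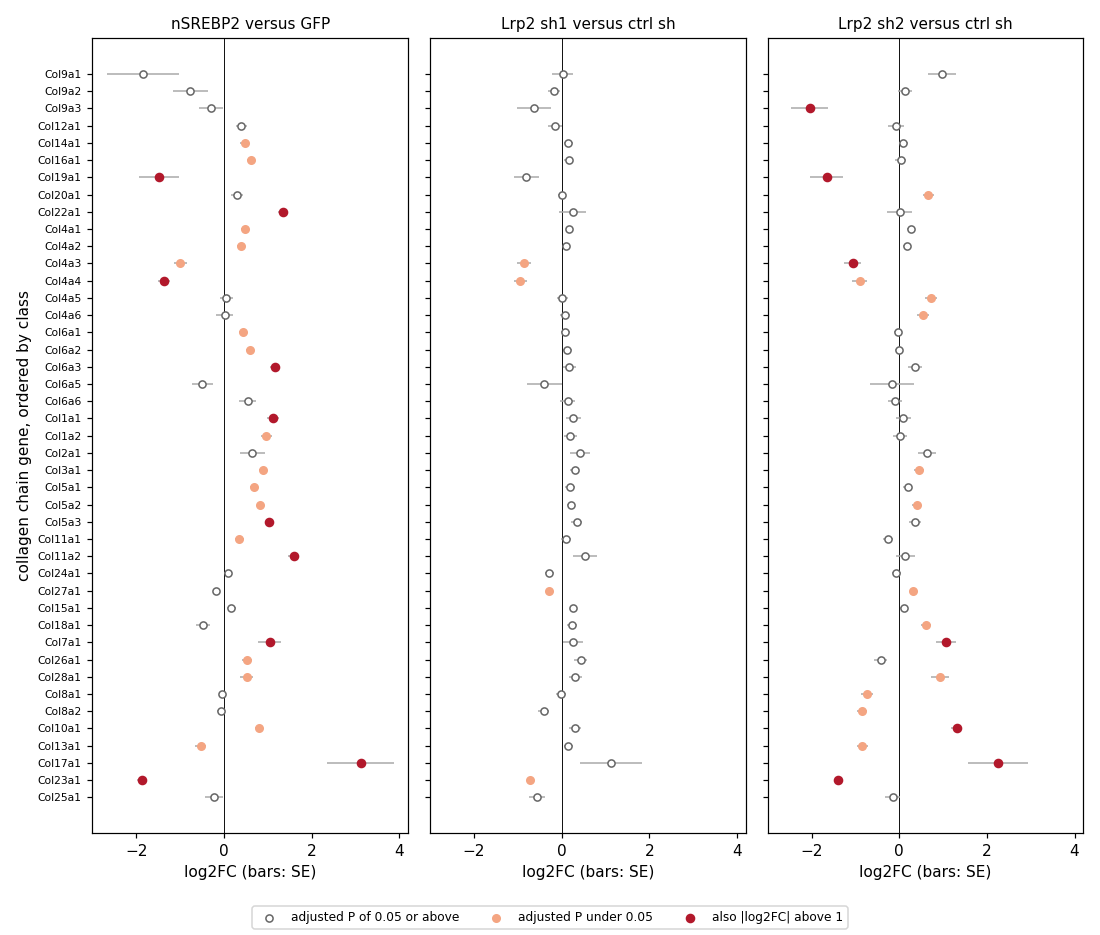
log2FC with its SE for the 43 collagen chain genes, ordered by class, with a panel for nSREBP2 against GFP and panels for each Lrp2 hairpin against ctrl sh. Open points have an adjusted P of 0.05 or above, pale points an adjusted P under 0.05 and dark points also an absolute log2FC above 1; these number 10, 0 and 7 in the 3 panels.

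Genes that modify, export, trim, cross-link or bind collagen chains were counted in the same comparison. Of 39 such genes tested, 26 were higher and 5 lower at an adjusted P under 0.05, beside 12.6% and 8.47% of all genes. Differential expression was reached by 5 of the 39, all higher, beside 4.71% of all genes higher. Higher were 11 of 15 genes of prolyl and lysyl modification, 3 of 4 of chaperones and export, 6 of 8 of propeptide removal, 3 of 5 of cross-linking and 3 of 7 receptors. Of the 5 lower genes 3 were receptors, 1 belonged to modification and 1 to propeptide removal. Tll2, a protease of the tolloid family that trims procollagens, had 2.26 against 0.407 CPM (log2FC 2.43 ± 0.37 SE, adjusted P=0.00151, edgeR), a low level. Adamts14 (1.34) and Adamts3 (1.12) remove the N-propeptide of procollagens. Lox, the lysyl oxidase that starts cross-links, had 786 against 329 CPM (log2FC 1.25 ± 0.08 SE, adjusted P=1.26e-05, edgeR), and P4ha3, a prolyl hydroxylase subunit, had a log2FC of 1.03.

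With Lrp2 sh1, no member reached the threshold for differential expression, beside 0.994% of all 17801 genes tested (0.449% higher and 0.545% lower), by edgeR or by DESeq2. At an unadjusted P under 0.05 there were 14 members, 6 higher and 8 lower. The share of all genes at this unadjusted limit was not computed, so this count is a description only. At an adjusted P under 0.05 alone 4 members were lower and none higher, beside 5.33% of all genes (2.28% lower and 3.06% higher). The median log2FC was 0.14 over the members and -0.01 over all genes.

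Col23a1 was at 119.9, 128 and 118 CPM in ctrl sh and at 75.2, 77.9 and 69.8 CPM in sh1 libraries, without overlap (log2FC -0.72 ± 0.06 SE, adjusted P=0.000525, edgeR). Col4a4 was at 364, 232 and 278 CPM in ctrl sh and at 146, 166 and 143 CPM in sh1 libraries (log2FC -0.94 ± 0.14 SE, adjusted P=0.00552, edgeR). Col4a3 was at 487, 288 and 352 CPM in ctrl sh and at 189, 229 and 206 CPM in sh1 libraries (log2FC -0.85 ± 0.16 SE, adjusted P=0.0164, edgeR). For each gene all sh1 libraries lay below all ctrl sh libraries. Uninjected libraries held 131 to 187 CPM of Col4a3 and 171 to 237 CPM of Col4a4, so the ctrl sh libraries lay above them for Col4a3 and overlapped them for Col4a4. The fourth was Col27a1, a fibrillar chain, at 61.3, 60.2 and 60.5 CPM in ctrl sh and 49.5, 50.7 and 47.9 CPM in sh1 libraries (log2FC -0.30 ± 0.06 SE, adjusted P=0.0179, edgeR). Leaving out a library took the adjusted P of Col23a1 to at most 0.00494, of Col4a4 to at most 0.0361, of Col4a3 to at most 0.0758 (above 0.05 without sh1 replicate 1 or 3) and of Col27a1 to at most 0.0741 (above 0.05 without ctrl sh replicate 3 or any sh1 library). Among these processing and receptor genes only the lysyl oxidase family member Loxl4 was differentially expressed (log2FC 1.33 ± 0.18 SE, adjusted P=0.00323, edgeR), beside 0.994% of all genes. At an adjusted P under 0.05, 3 of 38 rose and none fell, beside 3.06% of all genes higher and 2.28% lower.

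With Lrp2 sh2, 7 of 43 members were differentially expressed, 3 higher and 4 lower, beside 4.76% of all 18089 genes tested (2.98% higher and 1.78% lower). At an adjusted P under 0.05 alone 11 were higher and 8 lower, beside 18.1% of all genes (8.59% higher and 9.48% lower). The median log2FC was 0.09 over the members and 0.01 over all genes. The fibrillar class had 3 members higher, Col3a1 (0.44), Col5a2 (0.39) and Col27a1 (0.30). The adjusted P of Col3a1 was above 0.05, at most 0.104, without ctrl sh replicate 3 or sh2 replicate 2.

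Col23a1 was at 43.4, 51.4 and 43.8 CPM in sh2 libraries, below every ctrl sh library given above (log2FC -1.39 ± 0.08 SE, adjusted P=3.55e-05, edgeR). Col4a3 was at 142, 167 and 225 CPM and also below every ctrl sh library (log2FC -1.07 ± 0.20 SE, adjusted P=0.00597, edgeR), with a log2FC of -0.85 without ctrl sh replicate 1, and one between that and -1 without sh2 replicate 1. Col4a4 was at 123, 149.7 and 189 CPM and fell by less than the limit (log2FC -0.91 ± 0.18 SE, adjusted P=0.00737, edgeR). These 3 genes were thus lower than in the control vector with nSREBP2 and with each hairpin. The sh1 and sh2 comparisons share their ctrl sh libraries, which lay above uninjected ones for Col4a3. Uninjected libraries held 131 to 187 CPM of Col4a3, against 189 to 229 CPM with sh1 and 142 to 225 CPM with sh2. The hairpin libraries were not tested against uninjected ones. Exons of Col4a3 overlap those of C430014B12Rik on the opposite strand over 563 bases, and whether counting used the strand is not given in the sources used here. The counts of Col4a3 are therefore less certain than those of Col4a4 and Col23a1.

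**Figure D4:**
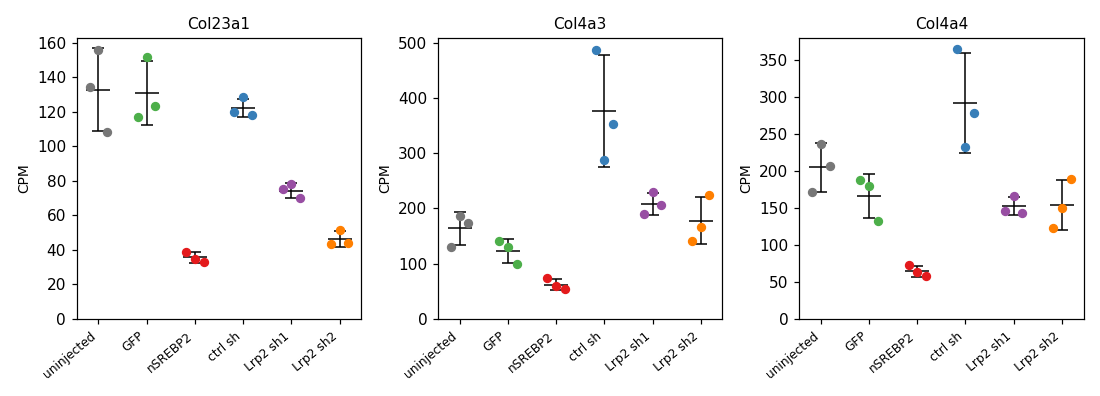
Level of Col23a1, Col4a3 and Col4a4 in CPM in each of the 18 libraries by group. Points are libraries and bars the mean and SD of 3; nSREBP2 libraries lie below GFP libraries, and sh1 and sh2 libraries below ctrl sh libraries, for all 3 genes.

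Col9a3, a chain of collagen IX that coats type II fibrils of the vitreous and cartilage, was at 354, 111 and 115 CPM in ctrl sh and at 42.6, 38.0 and 58.3 CPM in sh2 libraries (log2FC -2.05 ± 0.41 SE, adjusted P=0.00846, edgeR). A single ctrl sh library, replicate 1, stood above the others, and the groups did not overlap. Without ctrl sh replicate 1, the log2FC was -1.29 and still below an adjusted P of 0.05. The RPE markers summed to 3824, 1891 and 2085 CPM in ctrl sh replicates 1, 2 and 3. In the sh2 libraries they summed to 693, 784 and 1144 CPM. The part of RPE cells in Col9a3 was not tested. Exons of Col9a3 overlap those of Tcfl5 on the opposite strand over 234 bases, so the limit given for the counts of Col4a3 holds here too. Col19a1 was at 2.39, 2.42 and 2.36 CPM in ctrl sh and at 0.319, 0.755 and 1.17 CPM in sh2 libraries, again low (log2FC -1.66 ± 0.38 SE, adjusted P=0.0150, edgeR). Its adjusted P was just above 0.05, at most 0.0564, without ctrl sh replicate 2 or 3 or sh2 replicate 2.

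Col10a1, the short chain collagen of hypertrophic cartilage, was at 179.9, 218 and 213 CPM in ctrl sh and at 507, 565 and 425 CPM in sh2 libraries, far apart (log2FC 1.31 ± 0.12 SE, adjusted P=0.000171, edgeR). In sh1 libraries it was at 243, 201 and 309.7 CPM, overlapping ctrl sh. The rise over control was not particular to sh2, as Col10a1 was also higher with nSREBP2 than in GFP libraries, as given above. Col7a1 was at 4.79, 3.20 and 3.03 CPM in ctrl sh and at 7.19, 6.29 and 9.46 CPM in sh2 libraries (log2FC 1.06 ± 0.23 SE, adjusted P=0.0124, edgeR). Col17a1 was at 5.44, 8.82 and 3.29 CPM in ctrl sh and at 17.2, 6.79 and 60.1 CPM in sh2 libraries, and these groups overlapped (log2FC 2.26 ± 0.68 SE, adjusted P=0.0478, edgeR). The surface epithelium markers summed to 316, 61.0 and 1578 CPM in the same sh2 libraries and to 63.0, 220 and 2.28 CPM in ctrl sh. Their part was not tested, and the adjusted P of Col17a1 was above 0.05, at most 0.157, without any ctrl sh library or without sh2 replicate 1 or 3, and its log2FC without sh2 replicate 3 was 1.04. The adjusted P of Col7a1 was at most 0.0543, without ctrl sh replicate 3, and just above 0.05 without ctrl sh replicate 2. Uninjected libraries, at 5.61 to 8.52 CPM of Col7a1, overlapped the sh2 libraries.

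Other cell type markers moved as well. Rod markers were higher for 8 of 10 with sh2 (79.2 to 420 CPM, against 43.1 to 64.8 CPM in ctrl sh), and endothelial markers were lower for 9 of 10. RPE markers were lower for 5 of 10 and higher for 1. Fibroblast markers were higher for 2 and lower for 1 of 10. Of the 38 processing and receptor genes tested 10 rose and 3 fell at an adjusted P under 0.05, none past the log2FC limit. Among all genes 8.59% rose and 9.48% fell at that adjusted P. The part of these cell types was not tested. With sex as a term Col10a1 (1.39), Col23a1 (-1.30), Col4a3 (-1.30) and Col9a3 (-2.23) stayed below an adjusted P of 0.05, while Col17a1 (adjusted P=0.478), Col19a1 (0.0885) and Col7a1 (0.0737) did not.

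The hairpins were also set against each other. Col9a3 was the only member differentially expressed, lower with sh2 (log2FC -1.42 ± 0.15 SE, adjusted P=0.000166, edgeR), beside 5.13% of all 17975 genes (3.32% higher and 1.81% lower). At an adjusted P under 0.05 alone 9 members were higher and 7 lower with sh2, beside 22.4% of all genes (10.2% higher and 12.3% lower). Col13a1 (-0.999) and Col26a1 (-0.87) were among the lower, with Col10a1 (0.996), Col9a1 (0.95) and Col7a1 (0.80) among the higher. With sex as a term Col9a3 (adjusted P=0.0534), Col9a1 (0.234) and Col7a1 (0.210) were above 0.05. Leaving out a library took the adjusted P to at most 0.103 for Col9a1 (above 0.05 without sh1 replicate 2 or 3) and 0.0764 for Col7a1 (above 0.05 without sh1 replicate 1 or 2 or sh2 replicate 3). The log2FC of Col9a1 was 0.51 without sh2 replicate 1.

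The control vectors were set against uninjected eyes. In GFP libraries 2 members were differentially expressed, 1 higher and 1 lower, beside 1.41% of all 17837 genes (0.219% higher and 1.19% lower). At an adjusted P under 0.05 alone 3 were higher and 1 lower, beside 2.48% of all genes (0.662% higher and 1.82% lower). Col22a1 was at 7.36, 4.74 and 3.02 CPM in uninjected and higher in GFP libraries (log2FC 1.87 ± 0.27 SE, adjusted P=0.0131, edgeR). Col9a3 was at 120.0, 335 and 281 CPM in uninjected and at 55.4, 64.3 and 27.0 CPM in GFP libraries (log2FC -2.35 ± 0.40 SE, adjusted P=0.0205, edgeR), so the groups were apart although uninjected libraries varied widely. Col11a2 (0.86) and Col10a1 (0.82) rose below the limit, the latter from 129, 112 and 101 CPM to 193, 189 and 230.4 CPM. The adjusted P of Col22a1 was above 0.05, at most 0.0582, without uninjected replicate 2 or GFP replicate 1, and that of Col9a3, at most 0.0867, without uninjected replicate 2 or 3 or GFP replicate 1 or 2. Col11a2, at most 0.112, and Col10a1, at most 0.0533, also had an adjusted P above 0.05 without uninjected replicate 2, and Col11a2 without uninjected replicate 3 or GFP replicate 2 or 3.

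In ctrl sh libraries 4 members were higher and none lower, beside 2.39% of all 17822 genes (0.875% higher and 1.51% lower). At an adjusted P under 0.05 alone 5 were higher and none lower, beside 6.49% of all genes (3.13% higher and 3.37% lower). They were Col22a1 (log2FC 1.96 ± 0.33 SE, adjusted P=0.0155, edgeR), Col6a6 of collagen VI (1.26), Col4a3 (1.17) and Col11a2 (1.13), and Col10a1 (0.81) rose below the limit. Leaving out a library took the adjusted P to at most 0.0742 for Col22a1 (ctrl sh replicate 2 or 3), 0.131 for Col11a2 (any library but ctrl sh replicate 1) and 0.141 for Col6a6 (any library but uninjected replicate 1), 0.0519 for Col10a1 (ctrl sh replicate 2) and 0.0489 for Col4a3. Col22a1, Col11a2 and Col10a1 were thus higher with either control vector, in comparisons that share the uninjected libraries. The uninjected libraries were 2 female and 1 male, and with sex as a term Col22a1 kept a log2FC of 1.65 in GFP and 1.74 in ctrl sh libraries. In the same fit Col11a2 had an adjusted P of 0.0720 in GFP, above 0.05, and of 0.0135 in ctrl sh libraries, and Col10a1 was below 0.05 in both. RPE markers were lower for 6 of 10 in GFP and for none in ctrl sh at an adjusted P under 0.05, which was not tested as a part of these differences.

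**Figure D5:**
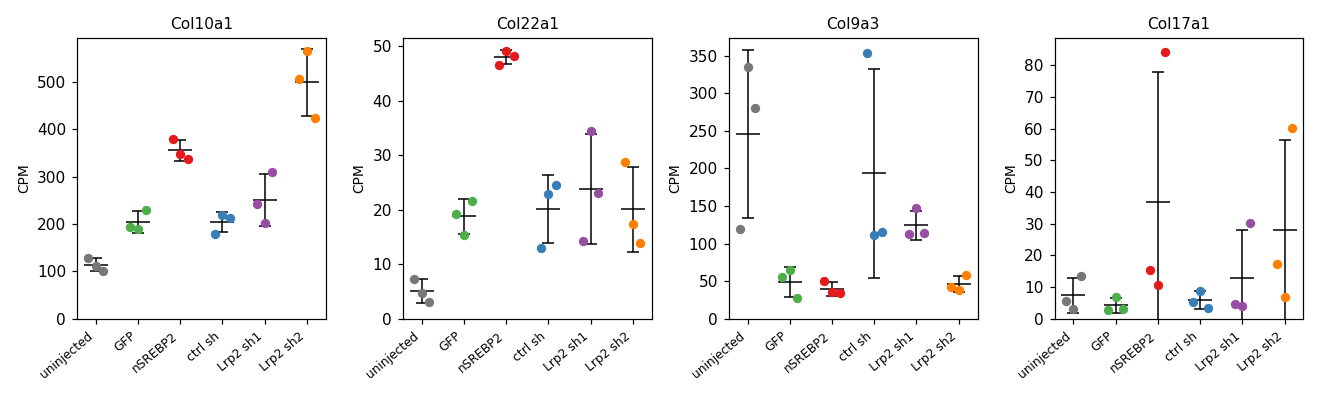
Level of Col10a1, Col22a1, Col9a3 and Col17a1 in CPM in each of the 18 libraries by group. Points are libraries and bars the mean and SD of 3; Col10a1 and Col22a1 are lowest in uninjected libraries, Col9a3 is at most 64.3 CPM in the GFP, nSREBP2 and sh2 groups, and Col17a1 is highest in the third nSREBP2 library at 84.3 CPM.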

How the data were processed

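RNA of RPE from 18 mice was sequenced, 3 libraries in each of 6 groups, with groups taken from the sample titles. The authors mapped reads to GRCm38 with STAR and deposited whole-number gene counts, which were used as deposited. Whether counting used the strand is not given in the sources used here. The members and gene lists were chosen with earlier results of these data known, and the surface epithelium list and the fits on female libraries alone after the values were seen. Genes were tested with edgeR 4.0.16 (quasi-likelihood, TMM, filterByExpr, R 4.3.3), each pair fitted on its 6 libraries, with Benjamini-Hochberg adjustment over all genes tested. Differential expression meant an adjusted P under 0.05 and an absolute log2FC above 1, as in the study, which used DESeq2 (here DESeq2 1.42.0, an alternative). CPM used TMM factors over all 18 libraries. Lengths and positions came from GENCODE M21, which held 52489 of the 52636 gene identifiers. Named were members differentially expressed in any pair, the 6 highest per kilobase, and, in pairs with under 3 such members, up to 5 of adjusted P under 0.05. In simulated nSREBP2 versus GFP counts, all 200 genes changed by 2 on the log2 scale were recovered with 0 false calls among 17948 genes. In simulated counts of all 6 groups the 200 were recovered with 15 false calls among 19204 genes. Both simulations gave all genes the same spread and changed only genes above a count floor. Changes near the log2FC limit or at low counts were not simulated. Replicate numbers did not pair the libraries (correlations of -0.26 to 0.27). Each library is a separate mouse, and depth was 8921885 to 13696934 counts.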

Additional observations from a re-analysis of the deposited data

Results flagged for a closer look

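The 2 Lrp2 hairpins differed from each other, in a direct test on their 6 libraries, for 16 of 43 collagen chain genes at an adjusted P under 0.05 (edgeR). Beside this, 22.4% of all 17975 genes tested passed the same limit, 10.2% higher and 12.3% lower with sh2. These shares also apply to the marker counts below. Values are log2FC of sh2 over sh1. Lower with sh2 were Col9a3 (-1.42), Col13a1 (-0.999), Col26a1 (-0.87), Col8a1 (-0.72), Col23a1 (-0.68), Col8a2 (-0.45) and Col11a1 (-0.36). Higher with sh2 were Col10a1 (0.996), Col9a1 (0.95), Col7a1 (0.80), Col4a5 (0.70), Col20a1 (0.64), Col28a1 (0.62), Col27a1 (0.60), Col4a6 (0.46) and Col18a1 (0.36). Lrp2 itself did not differ between the hairpins past the test (log2FC 0.08, adjusted P=0.728). Of the sh2 libraries 2 are male and all sh1 libraries are female, and with sh2 rod markers were higher for 9 of 10, endothelial markers lower for 10 of 10, RPE markers lower for 6 and higher for 1 of 10, macrophage markers higher for 6 of 8 and mural markers higher for 3 and lower for 4 of 10. The part of these cells was not tested. When the model also allowed for the sex of the mice, the adjusted P of Col9a3, Col9a1 and Col7a1 was above 0.05, as given above.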

How the results depend on the processing

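Counts of differentially expressed members are given as reported, then as changed. At adjusted P alone they went from 10 to 26 in nSREBP2 versus GFP, 0 to 4 in Lrp2 sh1 versus ctrl sh, 7 to 19 in Lrp2 sh2 versus ctrl sh, 2 to 4 in GFP versus uninjected and 1 to 16 in Lrp2 sh2 versus Lrp2 sh1. The shares of all genes at adjusted P alone were, in the same order, 21%, 5.33%, 18.1%, 2.48% and 22.4%. With the replicate number as a block, which pairs nothing by design, ctrl sh versus uninjected went from 4 to 0, sh2 versus sh1 from 1 to 3, and nSREBP2 versus GFP from 10 to 9. In sh2 versus sh1 DESeq2, no filter, a filter of 10 counts in 3 libraries, all 18 libraries in one fit and sex as a term each gave 2, and female libraries only, chosen after seeing the data and leaving 1 sh2 library assumed to vary like the others, gave 6. The cause was not tested.

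Leaving out each library in turn gave 7 to 13 members in nSREBP2 versus GFP, 0 to 2 for sh1, 4 to 8 for sh2, 0 to 3 for GFP versus uninjected, 1 to 4 for ctrl sh versus uninjected, 1 to 4 between the hairpins and 32 to 37 over all groups. The lowest count came without nSREBP2 replicate 3 (7), and without ctrl sh replicate 3 for sh2 (4). GFP versus uninjected had 0 without uninjected replicate 2 or GFP replicate 1. Only Col9a1 turned its direction past the test, in ctrl sh versus uninjected, where it did not pass as reported (-0.96) and its log2FC with a library left out ran from -1.52 to 2.95, the latter without uninjected replicate 2.

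Groups of 3 libraries limit what can be seen for Col19a1, at 4 to 49 counts per library.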
